A study of Mus musculus with 6 samples.

Results

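Integrin and laminin subunit genes were examined in neurosphere-derived enteric glial cells (EGCs), the support cells of intestinal neurons, at rest and after activation with lipopolysaccharide (LPS), a component of the bacterial cell wall. The family was taken up with earlier results of these data known, and its members were then found by gene symbol: every integrin alpha, integrin beta and laminin alpha, beta or gamma chain gene listed in the count files was taken. This gave 37 genes of 46603 gene identifiers, namely 18 integrin alpha, 8 integrin beta, 5 laminin alpha, 3 laminin beta and 3 laminin gamma genes. Poly(A) RNA had been sequenced from 3 control libraries and 3 libraries of cells given LPS at 100 ng/ml for 12 h. All 6 came from C57BL/6J mouse embryos at stage E14.5, whose whole intestines were dissociated, grown as floating neurospheres with growth factors and then plated in serum until confluent. The starting tissue was whole gut and no sort was described, so the cultures can hold other cells than glia. The labels do not say whether the replicates came from separate embryos or cultures, so p-values measure the spread between these libraries, which may be technical.

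Integrins are membrane receptors made of 1 alpha and 1 beta subunit, and the pair decides which ligand is bound: fibronectin and other proteins with an RGD motif, collagens, laminins, or counter-receptors on other cells. Inside the cell the beta tail is tied to actin through talin, kindlin and vinculin. Laminins are secreted trimers of an alpha, a beta and a gamma chain that form the sheet of basement membranes, where integrins and dystroglycan bind mainly the alpha chain. In the gut wall these proteins anchor glia, smooth muscle and vessels to their matrix and guide neural crest progenitors as they colonise the bowel.

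Between 18775316 and 23664312 reads were counted per library. A defining set of 10 glial markers summed to 649 to 873 CPM (read counts scaled to the normalised size of each library) in control and 683 to 711 CPM in LPS libraries. Of the 9 that entered the test described below, 1 was called higher and 1 lower, against 9.09% and 6.71% of all tested genes. Their median log2 fold change was -0.19. Other cell types were also represented. The 8 mesenchymal markers summed to 15603 to 16295 CPM in control and 15124 to 15842 CPM in LPS libraries. The 6 neuronal markers summed to 214 to 352 CPM in control and 230 to 336 CPM in LPS libraries. The 13 macrophage markers, none of them at 0 in any library, summed to 4377, 5708 and 13441 CPM in control replicates 1, 2 and 3 and to 4189, 5446 and 20432 CPM in the LPS replicates, and all 13 were highest in replicate 3 of both groups. The 8 smooth muscle markers summed to 2867, 2898 and 2623 CPM in control and 1059, 1049.7 and 762 CPM in LPS libraries. All 8 were called lower, against 6.71% of all tested genes. The 5 mesothelial markers summed to 67.4, 61.7 and 94.4 CPM in control and 31.8, 32.8 and 55.9 CPM in LPS libraries, with a median log2 fold change of -1.03. Lrrn4 was called lower, and with the replicate number as a block all 5 were, against 14.9% of all tested genes. The part of mesothelial cells in the lower levels described below was not tested. In such bulk samples, fewer cells of a type and less RNA per cell cannot be told apart.

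To examine which receptors and laminins the cultures expressed, levels were compared per kilobase of exon, since longer transcripts collect more reads. Itgb1, the beta subunit shared by most matrix receptors, stood highest of all beta subunits at 493 ± 37.1 CPM per kb in control and 486 ± 71.1 CPM per kb in LPS (SD, n = 3). Itgb5, which pairs with Itgav, followed at 116 ± 20.9 CPM per kb in control, then the leukocyte subunit Itgb2 at 48.1 ± 24.5 CPM per kb and Itgb3 at 9.8 ± 3.61 CPM per kb. Itgb8, Itgb4, Itgb7 and Itgb6 came after them with means below 1 CPM per kb in control. In control no pair of neighbours in this order from Itgb1 to Itgb8 overlapped in library values. In LPS libraries the order of the 8 was kept, but Itgb5 overlapped with Itgb2, and Itgb4 with Itgb7.

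Among alpha subunits the fibronectin receptor Itga5 had the highest mean in both groups, with 70.4 ± 10.6 CPM per kb in control and 147 ± 15.1 CPM per kb in LPS. Itgam, a leukocyte subunit, and Itgav, the RGD receptor for vitronectin, came next in both groups, and their library values overlapped with those of Itga5 or of each other. The fourth place passed from Itga6, a laminin receptor, at 19.9 ± 11.6 CPM per kb in control, to the leukocyte subunit Itgal at 25.7 ± 19.6 CPM per kb in LPS. Itgal had ranked 15 of 18 in control at 0.495 ± 0.656 CPM per kb. Itga8, a receptor for nephronectin, moved from rank 6 to rank 10. These ranks rest on means over libraries that differ widely for Itgam, Itgal and Itga6. In control replicates 1, 2 and 3 Itga6 was at 11.8, 14.6 and 33.2 CPM per kb, and Itga11, next in rank, at 20, 19.6 and 18.2. With the longest transcript in place of all joined exons Itgav stood above Itgam in control, and Itga6 did not overlap with Itga11. Itga8 then moved from rank 7 to rank 9.

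Of the laminin chains, Lamc1 at 62.6 ± 3.87 CPM per kb and Lamb1 at 52.8 ± 10.7 CPM per kb were the most abundant in control, and Lamb2 reached 29.5 ± 3.02 CPM per kb. The alpha chains were lower: Lama4 at 8.85 ± 1.11 CPM per kb, Lama2 at 6.88 ± 2.82, Lama1 at 5.24 ± 1.42 and Lama5 at 4.56 ± 1.07 CPM per kb overlapped from one to the next in control. In LPS libraries Lama4, at 24 ± 9.39 CPM per kb, no longer overlapped with any other alpha chain. Lama3 and Lamb3, chains of epithelial basement membranes, had group means of at most 0.353 CPM per kb.

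**Figure D1:**
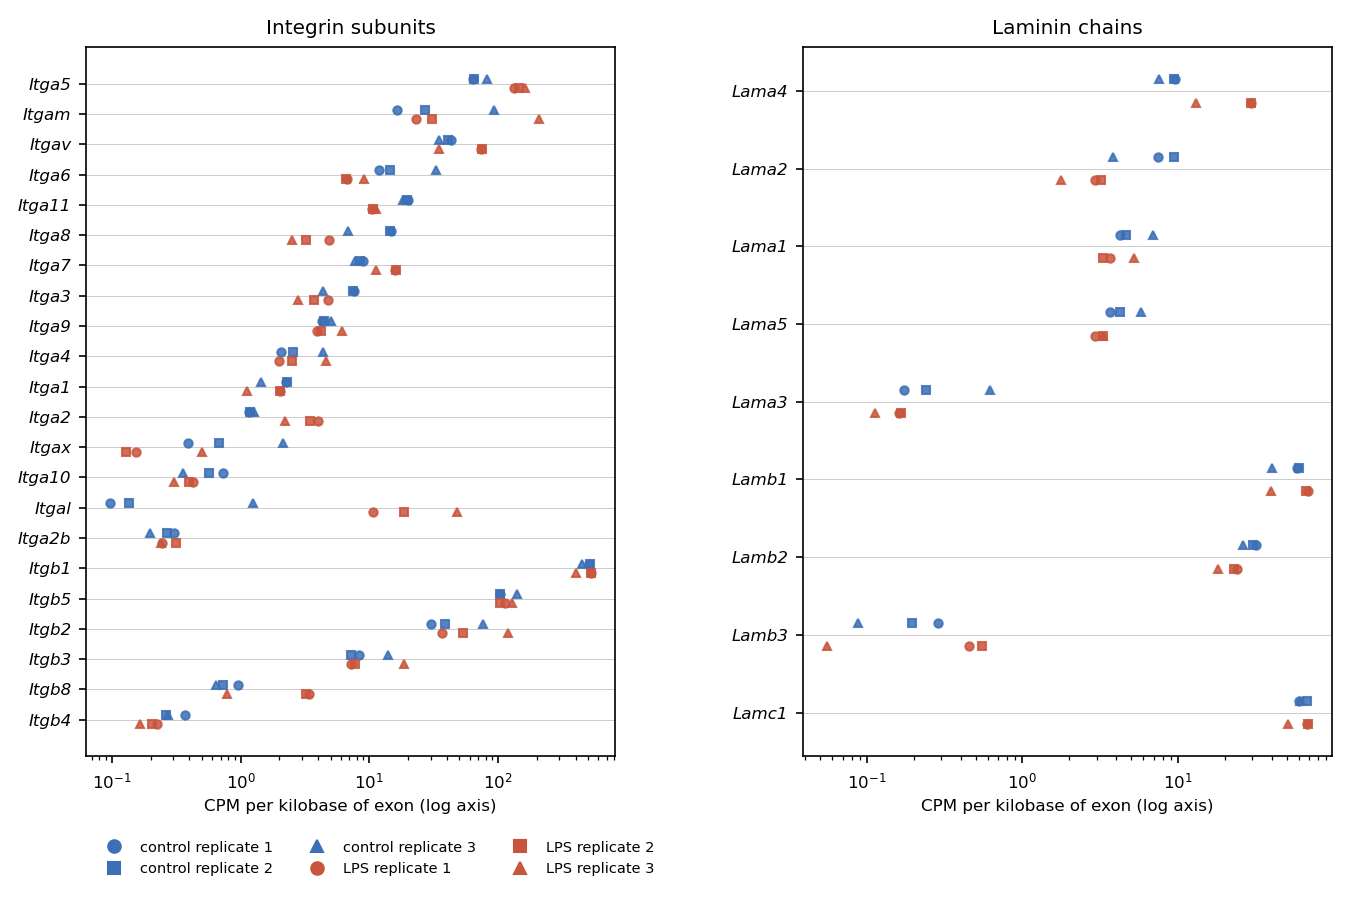
Level of tested integrin subunits and laminin chains in every library, in CPM per kilobase of exon on a log axis, with genes in order of their control mean within each class. Blue marks control and red LPS, and circles, squares and triangles mark replicates 1, 2 and 3. Itgb1 stands at the top of the integrins in all 6 libraries, and Itgal moves from about the lowest alpha subunits in control to between 10.7 and 47.9 CPM per kb in LPS.

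To examine the response to LPS, all 15226 genes with enough counts were tested together with the edgeR quasi-likelihood F-test, with calls made at an adjusted p under 0.05. Of the 37 subunits, 32 were tested. The 5 that were not had few or no counts. Itgad had no count in any library, which allows up to 3 counts, or at most 0.167 CPM. Itgae had 1 to 4, Itgb6 0 to 3, Itgb7 2 to 11 and Lamc3 1 to 10 counts per library. After LPS 6 subunits were called higher, among them Itga5, Itga2, Itga7, Itgal and Lama4, and 2 were called lower, Itga8 and Itga11. The 6 higher calls made up 18.8% of the tested subunits, against 9.09% of all tested genes called higher. The 2 lower calls made up 6.25%, near the 6.71% of all tested genes called lower. Their median log2 fold change was 0.01, against -0.02 over all genes, with 16 subunits above 0 and 16 below.

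The groups did not overlap, with every LPS library above every control library, for 6 of the 32 subunits (18.8%) and, with every LPS library below, for 8 (25%). Among all tested genes these shares were 19.3% and 19.4%. The same-numbered control and LPS libraries deviated together, so the fit was repeated with the replicate number as a block. This pairing was read from the data and mainly sets number 3 apart. Numbers 1 and 2 correlated across (0.419 and 0.323) about as within (0.513 and 0.334). The fit with the block called 7 of the 32 higher (21.9%) and 9 lower (28.1%), against 15.4% and 14.9% of all tested genes. The 8 subunits added by the block are given with their values below. The higher calls numbered 1 without control replicate 1, 0 without control replicate 2, 4 without control replicate 3, 2 without LPS replicate 1, 1 without LPS replicate 2 and 8 without LPS replicate 3. Over all tested genes the shares called higher in these fits were, in the same order, 3.03%, 2.44%, 7.52%, 3.98%, 3.36% and 12.6%, each of which moved from 9.09% in the same direction as the count of subunits. Without control replicate 2, edgeR still gave 6 subunits with a higher level at an unadjusted p under 0.05. Lower calls numbered 3 without control replicate 3 and 1 without any of the other 5 libraries, where 0.72% to 9.13% of all genes were called lower. With library size alone as scaling the calls were 5 higher and 5 lower, against 6.48% and 13.5% of all genes. With upper-quartile factors 5 were higher and 3 lower, against 6.9% and 10.4% of all genes.

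**Figure D2:**
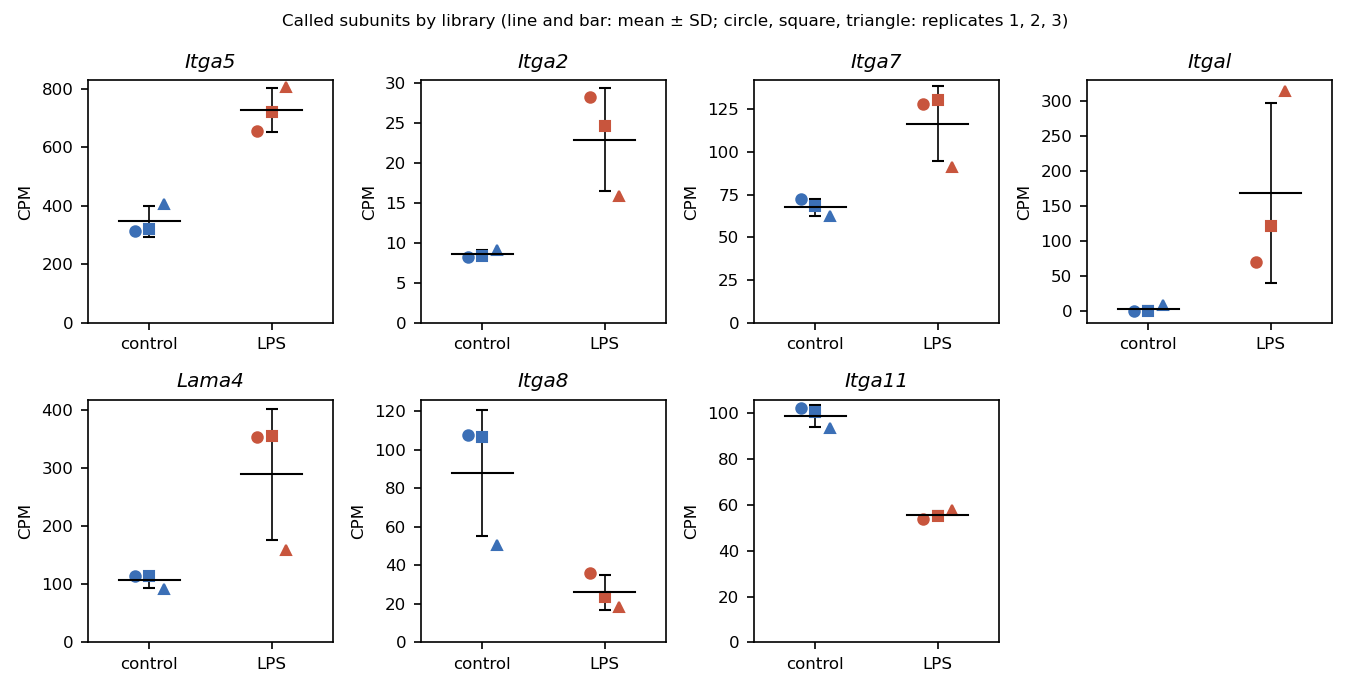
Level in CPM of 7 of the 8 subunits called between LPS and control, one panel per gene with an axis that includes 0. Circles, squares and triangles are replicates 1, 2 and 3 (blue control, red LPS), horizontal lines are means and bars are SD (n = 3). The groups do not overlap in any of the 7 panels, and LPS replicate 3 lies apart from LPS replicates 1 and 2 for Lama4 (159 against 354 and 356 CPM).

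To show the sequence at the start of called integrin genes, the 300 bases around the start site (250 before and 50 after, on the gene strand, RefSeq, GRCm38.p6) are printed for Itga2 and Itga5, both higher after LPS, and Itga8 and Itga11, both lower. These were the called subunits with an entry in the promoter table, which held 23 of the 37 subunits. The windows lie at chr13:114932051-114932350 (minus strand) for Itga2, chr15:103366742-103367041 (minus) for Itga5, chr2:12301895-12302194 (minus) for Itga8 and chr9:62677605-62677904 (plus) for Itga11. Capitals mark matches to the GC box.
Itga2: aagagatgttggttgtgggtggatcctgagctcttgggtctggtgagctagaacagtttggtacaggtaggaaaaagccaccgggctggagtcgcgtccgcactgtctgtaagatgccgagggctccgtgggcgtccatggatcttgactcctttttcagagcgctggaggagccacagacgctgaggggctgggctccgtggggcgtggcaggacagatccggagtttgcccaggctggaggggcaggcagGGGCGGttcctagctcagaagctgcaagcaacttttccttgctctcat
Itga5: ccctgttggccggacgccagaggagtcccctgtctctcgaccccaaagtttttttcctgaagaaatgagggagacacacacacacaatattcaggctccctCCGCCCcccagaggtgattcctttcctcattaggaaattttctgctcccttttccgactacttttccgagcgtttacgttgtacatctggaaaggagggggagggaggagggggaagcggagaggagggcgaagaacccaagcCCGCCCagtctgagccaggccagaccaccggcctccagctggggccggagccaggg
Itga8: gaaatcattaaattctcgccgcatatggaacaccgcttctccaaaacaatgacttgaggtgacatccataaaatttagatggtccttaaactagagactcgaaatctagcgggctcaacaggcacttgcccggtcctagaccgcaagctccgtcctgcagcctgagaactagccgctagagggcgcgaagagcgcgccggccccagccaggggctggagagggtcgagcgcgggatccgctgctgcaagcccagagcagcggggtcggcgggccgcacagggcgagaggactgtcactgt
Itga11: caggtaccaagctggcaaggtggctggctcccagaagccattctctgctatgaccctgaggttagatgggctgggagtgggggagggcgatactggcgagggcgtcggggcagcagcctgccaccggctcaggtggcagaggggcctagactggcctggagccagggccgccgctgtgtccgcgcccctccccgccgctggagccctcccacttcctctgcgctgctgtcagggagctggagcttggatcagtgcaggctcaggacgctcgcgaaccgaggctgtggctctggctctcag

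Both strands of these windows were searched for 5 motifs: the NF-kappaB consensus, the AP-1 site TGANTCA, the CArG box bound by serum response factor, the TEAD site GGAATG and the GC box GGGCGG. The Itga2 window held 1 GC box, which began 2 bases after the start site, and the Itga5 window held 2 on the opposite strand (CCGCCC), 149 and 6 bases before it. The Itga8 and Itga11 windows held none of the 5 motifs, and no window of the 4 held any motif but the GC box. Among all 32851 promoters of this length, 35.7% held a GC box, 14.7% the TEAD site, 7.81% the AP-1 site, 4.51% the NF-kappaB consensus and 1.63% a CArG box. Of the 26 windows listed for the subunits, 12, 3, 3, 2 and 2 held these motifs in the same order. A match is not evidence of binding, and elements outside the 300 bases were not searched.

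Of the receptors for fibronectin and other RGD ligands, Itga5 rose and Itga8 fell, while Itgav and Itga2b were not called. Itga5 (ENSMUSG00000000555, chr15:103344286-103366763, minus strand), the main fibronectin receptor alpha subunit, was at 315, 319.5 and 408 CPM in control replicates 1, 2 and 3 and at 656, 719 and 805 CPM in the LPS replicates. The lowest LPS library thus lay above the highest control library. Its level was 2.09-fold higher (log2 fold change 1.06 ± 0.14 SE, adjusted p = 0.00861). The call was lost without control replicate 2 (adjusted p = 0.0593). Per length it also had the highest mean of the alpha subunits in both groups. In replicate 3 Itgam lay above it, at 93.3 against 82.7 CPM per kb in control and 209.5 against 163.1 in LPS. The start-site window of Itga5 above was the one of the 4 with 2 GC boxes.

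Itga8 (ENSMUSG00000026768, chr2:12106632-12301922, minus strand) pairs with Itgb1 and binds nephronectin and fibronectin, and is known from mesenchymal and smooth muscle cells. It was at 108, 107 and 50.5 CPM in control and 36, 23.5 and 18.6 CPM in LPS libraries. Control replicate 3 was far below the other control libraries but stayed above every LPS library. The level was 3.39-fold lower after LPS than in control (log2 fold change -1.76 ± 0.38 SE, adjusted p = 0.0328). Its call was lost without control replicate 1 (adjusted p = 0.111), control replicate 2 (adjusted p = 0.125), LPS replicate 1 (adjusted p = 0.0565), LPS replicate 2 (adjusted p = 0.126) or LPS replicate 3 (adjusted p = 0.0512). Summed smooth muscle markers were 2623 to 2898 CPM in control and 762 to 1059 CPM in LPS libraries, with all 8 lower, and their part in the result was not tested. An antisense gene, E030013I19Rik, overlaps 5.05% of the exon bases of Itga8, and the strand setting of the counting is not given.

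Itgav, which takes up several beta partners and binds vitronectin and latent TGF-beta, was at 466, 436 and 376 CPM in control and 787, 799 and 374 CPM in LPS libraries. LPS replicates 1 and 2 were well above control, whereas LPS replicate 3 lay level with the lowest control library. The log2 fold change was 0.62 ± 0.30 SE (adjusted p = 0.22). Itga2b, the platelet fibrinogen receptor subunit, stayed between 1.07 and 1.73 CPM in all libraries. A gene on the opposite strand, Gm13684, overlaps 5.9% of the exon bases of Itgav.

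Of the 4 collagen-binding alpha subunits, Itga2 rose and Itga11 fell, so members of this class moved in opposite directions. Itga2 (ENSMUSG00000015533, chr13:114833081-114932100, minus strand), a receptor for fibrillar collagen on epithelia and platelets, was at 8.22, 8.41 and 9.13 CPM in control and 28.3, 24.6 and 15.9 CPM in LPS libraries. The control values were close together and LPS replicate 3 was the lowest of its group. It was 2.67-fold higher (log2 fold change 1.42 ± 0.23 SE, adjusted p = 0.0142). The call did not hold without control replicate 1 (adjusted p = 0.0697), control replicate 2 (adjusted p = 0.0799) or LPS replicate 2 (adjusted p = 0.0644).

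Itga11 (ENSMUSG00000032243, chr9:62677826-62783982, plus strand), the collagen I receptor of fibroblasts and mesenchyme, was at 102, 100.4 and 93.4 CPM in control and 53.7, 54.9 and 57.6 CPM in LPS libraries. Replicates were tight in both groups, and every LPS library was below every control library. The level was 1.78-fold lower (log2 fold change -0.83 ± 0.07 SE, adjusted p = 0.00202). It was the one called subunit that stayed called under all 16 alternatives, with adjusted p up to 0.022. Of the 8 mesenchymal markers, Dcn and Pdgfra were called higher and, with the block, Lum and Thy1 lower, with a list median log2 fold change of -0.14. Over all tested genes 9.09% were called higher and, with the block, 14.9% lower. The list summed to 15603 to 16295 CPM in control and 15124 to 15842 CPM in LPS libraries.

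Itga1, which prefers basement membrane collagen, was at 42, 42.6 and 26.8 CPM in control and 37.8, 37.3 and 20.7 CPM in LPS libraries, with a log2 fold change -0.22 ± 0.29 SE (adjusted p = 0.657). Itga10, a cartilage collagen receptor, was low at 3.81, 2.97 and 1.86 CPM in control and 2.22, 2.06 and 1.57 CPM in LPS libraries and was not called. Its values are uncertain, because 31.8% of its 31-base words also occur in other genes, and Gm42957, on the same strand, overlaps 33.5% of its exon bases.

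Of the alpha subunits that bind laminin, Itga7 rose, and Itga3 and Itga6 were called lower once the replicate block was added. Without the block, Itga6 was also called lower by DESeq2, by the edgeR exact test and with library size alone. Itga7 (ENSMUSG00000025348, chr10:128933818-128958282, plus strand), known as the laminin receptor of muscle, was at 72.3, 68.1 and 62.4 CPM in control and 128, 130.1 and 91.2 CPM in LPS libraries. LPS replicate 3 was the lowest of its group yet above all control libraries. The level was 1.72-fold higher (log2 fold change 0.78 ± 0.15 SE, adjusted p = 0.0255). It was not called without control replicate 1 (adjusted p = 0.0842), control replicate 2 (adjusted p = 0.112), control replicate 3 (adjusted p = 0.0591), LPS replicate 1 (adjusted p = 0.0871) or LPS replicate 2 (adjusted p = 0.096). The call also ended with upper-quartile factors (adjusted p = 0.0502) and with library size alone (adjusted p = 0.0553). The smooth muscle markers, as given for Itga8, were lower in the same libraries in which Itga7 was higher, and their part was not tested.

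Itga6 (ENSMUSG00000027111, chr2:71745616-71858416, plus strand), a receptor for most laminins that is used by glia and neural stem cells, was at 107, 131 and 299.5 CPM in control and 60.7, 59.2 and 82.1 CPM in LPS libraries. The groups did not overlap, but control replicate 3 was far above the other control libraries. The log2 fold change was -1.41 ± 0.42 SE (adjusted p = 0.0735) and, with the block, -1.28 ± 0.22 SE (adjusted p = 0.0182). Leaving out control replicate 3 reduced the size of the change, to -0.81 (adjusted p = 0.0503). Itga3, which binds the laminins of epithelia and vessels, was at 43.1, 42.9 and 25 CPM in control and 27.2, 21.4 and 16.1 CPM in LPS libraries. Control replicate 3 fell among the LPS values, so the groups overlapped. Its log2 fold change was -0.78 ± 0.28 SE (adjusted p = 0.122) and, with the block, -0.77 ± 0.10 SE (adjusted p = 0.0103).

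The pair Itga4 and Itga9 binds VCAM1, fibronectin and tenascin-C, and Itga4 is needed by many migrating leukocytes and neural crest cells. Itga4 was at 28.7, 35.9 and 60.5 CPM in control and 27.9, 35.1 and 64 CPM in LPS libraries, nearly the same in same-numbered libraries of both groups. Its log2 fold change was 0.02 ± 0.40 SE (adjusted p = 0.978). Itga9 ranged from 30.1 to 47.1 CPM over the 6 libraries, with log2 fold change 0.04 ± 0.19 SE (adjusted p = 0.907). Cerkl, on the opposite strand, overlaps 8.04% of the exon bases of Itga4.

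Of the 6 beta subunits tested, edgeR called 0, with 1 higher at an unadjusted p under 0.05, and with so few members this count is near the shares over all genes given above. DESeq2 and the edgeR exact test each called 1 higher, Itgb8, the replicate block 1 higher, Itgb2, and limma-voom 0. Over all genes these tools called 13.7%, 9.36%, 15.4% and 8.21% higher in the same order, so 1 of 6 is near these shares too. Whether alpha and beta subunits differed was not tested. Itgb1 was at 2083, 2113 and 1837 CPM in control and 2147, 2153 and 1647 CPM in LPS libraries, with log2 fold change -0.02 ± 0.14 SE (adjusted p = 0.94). LPS replicate 3 was the lowest of the 6 and the other LPS libraries lay just above control. Itgb5 was at 370.4, 369 and 498 CPM in control and 405, 365 and 454 CPM in LPS libraries, with log2 fold change -0.02 ± 0.16 SE (adjusted p = 0.958). Of the 31-base words of Itgb5, 7.86% also occur in other genes.

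Itgb8, the partner of Itgav in the activation of latent TGF-beta, differed between LPS replicates. It was at 10.5, 8.06 and 7.15 CPM in control and at 37.8, 35.6 and 8.74 CPM in LPS replicates 1, 2 and 3. The first pair of LPS libraries stood far above control, whereas LPS replicate 3 lay within it. The log2 fold change was 1.68 ± 0.55 SE (adjusted p = 0.0943), and without LPS replicate 3 it was 2.10 (adjusted p = 0.002). Itgb3, the vitronectin and fibrinogen receptor subunit, was at 48.6, 42.7 and 82.2 CPM in control and 42.4, 45.5 and 109 CPM in LPS libraries and was highest in replicate 3 of both groups. Itgb4, the hemidesmosome subunit, was between 1.15 and 2.58 CPM, with every LPS library below every control library, and was not called.

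The leukocyte integrins pair the alpha subunits Itgal, Itgam, Itgax or Itgad with Itgb2, and Itgae with Itgb7. Itgal (ENSMUSG00000030830, chr7:127296260-127335138, plus strand), the alpha chain of LFA-1, which binds ICAM1, had the largest fold change of the 32 subunits. It was at 0.636, 0.885 and 8.22 CPM in control and 70.4, 122 and 315 CPM in LPS libraries. Even the lowest LPS library stood far above the highest control library, control replicate 3. The level was 51.7-fold higher (log2 fold change 5.69 ± 1.20 SE, adjusted p = 0.031). The call was lost when the fit left out control replicate 1 (adjusted p = 0.0965), control replicate 2 (adjusted p = 0.121), LPS replicate 1 (adjusted p = 0.0629) or LPS replicate 2 (adjusted p = 0.0881). Its size rested on the replicate 3 libraries, with log2 fold change 7.80 without control replicate 3 and 4.87 without LPS replicate 3. Within each pair of same-numbered libraries the log2 ratio was 6.79, 7.11 and 5.26.

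The macrophage markers summed in the same libraries to 4377, 5708 and 13441 CPM in control and 4189, 5446 and 20432 CPM in LPS replicates 1, 2 and 3. Within each group both this sum and Itgal were highest in replicate 3. Of the 13 macrophage markers, 1, Adgre1, was called higher, at 159, 229 and 472 CPM in control and 952, 1261 and 3699.6 CPM in LPS libraries. This call was 7.7% of the list, near the 9.09% of all tested genes called higher. With the block, 4 of the 13 were called higher and 4 lower (30.8% each), against 15.4% and 14.9% of all tested genes. The T cell genes Cd3e and Cd3g had no count in any library, and of the 8 markers of T cells, B cells and neutrophils only S100a8 was tested, at 0.127, 0.133 and 0.827 CPM in control and 14.9, 13.5 and 4.03 CPM in LPS libraries. The part of any of these cells in the Itgal level was not tested.

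Itgam, the alpha chain of Mac-1 on macrophages and neutrophils, was at 82.7, 135 and 469 CPM in control and 115, 154 and 1053 CPM in LPS libraries. It was highest in replicate 3 of both groups, as were the macrophage markers, and its log2 fold change of 0.94 ± 1.06 SE was not called (adjusted p = 0.59). Without LPS replicate 3 the sign turned, to -0.77 (adjusted p = 0.518), and without control replicate 3 the value was 2.03. Itgb2, the common beta chain, was at 91.5, 117 and 232 CPM in control and 112, 163 and 365 CPM in LPS libraries. Each LPS library was above the control library of the same number, and the groups overlapped. The log2 fold change was 0.54 ± 0.54 SE (adjusted p = 0.545) and, with the block, 0.48 ± 0.09 SE (adjusted p = 0.0211). Without LPS replicate 3 the sign of the fit without the block turned, to -0.10, and without control replicate 3 the value was 1.05.

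Itgax, known from dendritic cells and some macrophages, went the other way. It was at 1.86, 3.28 and 10.3 CPM in control and 0.741, 0.613 and 2.41 CPM in LPS libraries, lower after LPS in each of the 3 pairs, and LPS replicate 3 lay above control replicate 1. The log2 fold change was -2.03 ± 0.83 SE (adjusted p = 0.157) and, with the block, -1.96 ± 0.26 SE (adjusted p = 0.0107). Without the block it was -1.02 when control replicate 3 was left out and -2.92 when LPS replicate 3 was. Of its 31-base words, 10.7% also occur in other genes, so part of its counts may depend on how reads with several positions were treated.

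**Figure D3:**
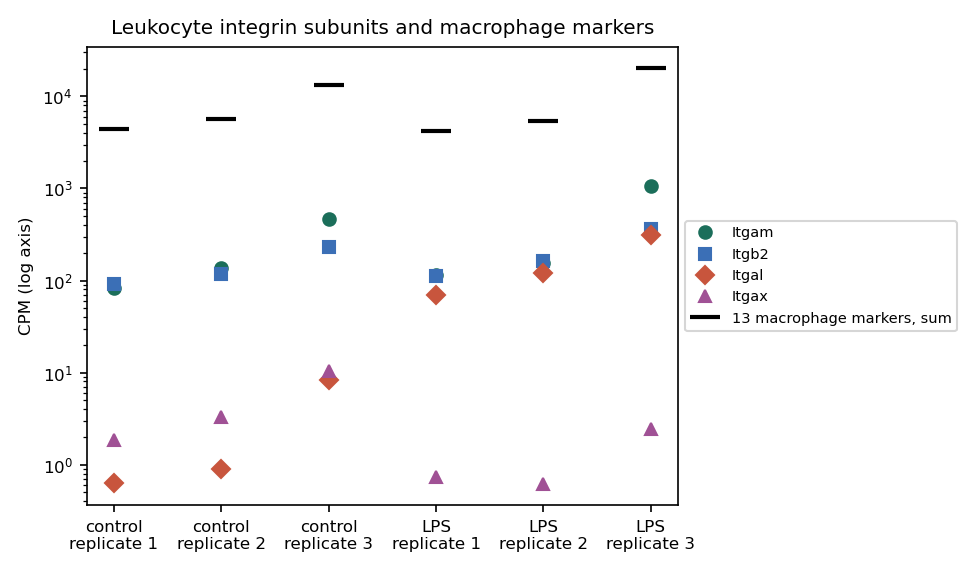
Level in CPM, on a log axis, of Itgam, Itgb2, Itgal and Itgax and the summed level of 13 macrophage markers (black bars) in each of the 6 libraries. Itgam, Itgb2 and the marker sum are highest in replicate 3 of both groups, while Itgal lies between 0.636 and 8.22 CPM in control and between 70.4 and 315 CPM in LPS.

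Among the laminin alpha chains, Lama4 rose, and Lama1, Lama2 and Lama5 were called lower once the replicate block was added. Without the block, Lama2 was also called lower by DESeq2, the edgeR exact test and library size alone, and Lama5 by both upper-quartile factors and library size alone. Lama4 (ENSMUSG00000019846, chr10:38965515-39110188, plus strand), the short alpha chain of vessel, muscle and nerve basement membranes, was at 115, 114 and 91.3 CPM in control and 354, 356 and 159 CPM in LPS libraries. LPS replicates 1 and 2 were almost equal, and LPS replicate 3 was well below them. The level was 2.71-fold higher (log2 fold change 1.44 ± 0.33 SE, adjusted p = 0.037). The call required all 6 libraries or the absence of LPS replicate 3: it was lost without control replicate 1 (adjusted p = 0.116), control replicate 2 (adjusted p = 0.133), control replicate 3 (adjusted p = 0.0846), LPS replicate 1 (adjusted p = 0.109) or LPS replicate 2 (adjusted p = 0.123). The 4 endothelial markers summed to 10.9 to 17.7 CPM in control and 8.05 to 20.7 CPM in LPS libraries. Of the 3 that were tested, with a median log2 fold change of 0.98, edgeR called 0, also at an unadjusted p under 0.05, and DESeq2 called 0. With the block Cdh5 and Pecam1 were called higher (adjusted p = 0.0306 and 0.0246), where 15.4% of all tested genes were. The third tested marker was lower with the block at an unadjusted p under 0.05. The part of endothelial cells in the Lama4 level was not tested.

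Lama2, the alpha chain of muscle and peripheral nerve that Schwann cells use, was at 121, 153 and 62.4 CPM in control and 47.8, 52.2 and 29.1 CPM in LPS libraries. No LPS library reached the lowest control library, control replicate 3. Its log2 fold change was -1.38 ± 0.38 SE (adjusted p = 0.0612) and, with the block, -1.34 ± 0.10 SE (adjusted p = 0.00278). It was called lower without control replicate 3 as well (log2 fold change -1.66, adjusted p = 0.0242).

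Lama1, the alpha chain of early embryonic basement membranes, was at 41.1, 44.6 and 66.5 CPM in control and 35.3, 31.8 and 50.6 CPM in LPS libraries, with log2 fold change -0.37 ± 0.25 SE (adjusted p = 0.369, with the block 0.029). Its groups overlapped, since LPS replicate 3 was above control replicates 1 and 2. Lama5, the broadly used alpha chain of mature basement membranes, was at 42, 48.4 and 65.4 CPM in control and 33.5, 37.6 and 37.5 CPM in LPS libraries. The groups did not overlap, and the log2 fold change was -0.52 ± 0.18 SE (adjusted p = 0.101, with the block 0.0377). Lama3 was low, at 1.86, 2.57 and 6.7 CPM in control and 1.73, 1.78 and 1.2 CPM in LPS libraries. Its groups did not overlap either, by a narrow margin, and it was not called.

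The makeup of the alpha chains was then compared as each chain's share of their summed level per length. This measure does not depend on scaling between libraries but does depend on the length used. Lama4 made up 38%, 33.9% and 30.7% of the alpha chain level in control replicates 1, 2 and 3 and 75.2%, 74.8% and 55.8% in the LPS replicates, a mean difference of 34.4 points. Lama2 made up 29.7%, 33.6% and 15.5% in control and 7.49%, 8.1% and 7.55% in LPS libraries. Lama5 went from 14.7%, 15.2% and 23.3% to 7.53%, 8.37% and 14%, and Lama1 from 16.9%, 16.5% and 27.9% to 9.35%, 8.33% and 22.2%. With the longest transcript in place of all joined exons, Lama4 made up 47.8%, 42.9% and 43.2% in control and 83.3%, 82.8% and 69.1% in LPS libraries. With either length the shares of Lama4, Lama2 and Lama5 did not overlap between groups, whereas those of Lama1 did. With 3 libraries against 3, an exact two-sided permutation test cannot give a p below 0.1, and no other test of the shares was run.

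**Figure D4:**
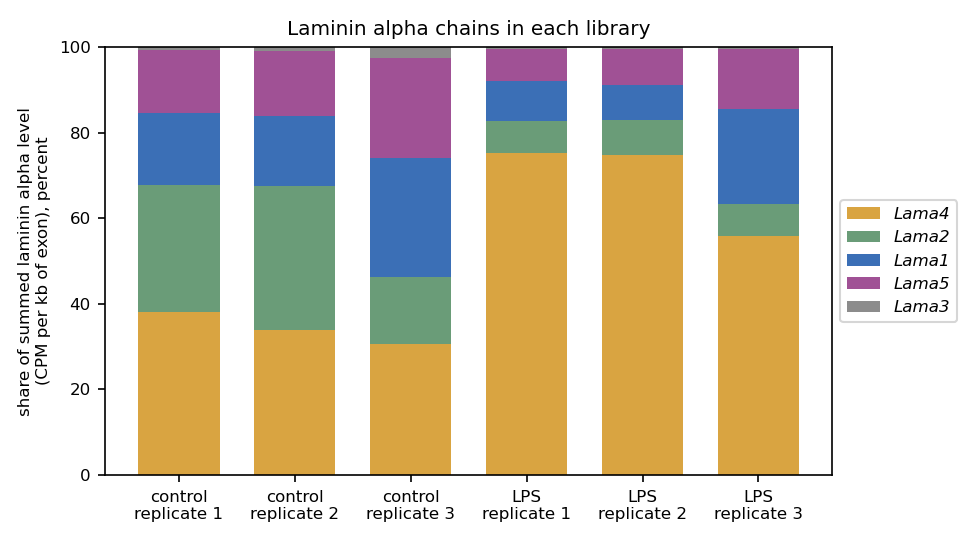
Share of each laminin alpha chain in the summed laminin alpha level (CPM per kilobase of exon) of each library, in percent. Lama4 takes 30.7 to 38% of the bar in control libraries and 55.8 to 75.2% in LPS libraries.

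No laminin beta chain passed the test. Lamb1, the common beta chain, was at 577, 593 and 402 CPM in control and 679.6, 661 and 392 CPM in LPS libraries, with log2 fold change 0.14 ± 0.26 SE (adjusted p = 0.756). Lamb2, the beta chain of synaptic and muscle basement membranes, was at 194, 185 and 159 CPM in control and 147, 139 and 111 CPM in LPS libraries, and every LPS library was below every control library. Its log2 fold change was -0.44 ± 0.14 SE (adjusted p = 0.0819) and, with the block, -0.45 ± 0.06 SE (adjusted p = 0.0091). Per length, Lamb1 made up 64.4%, 66.1% and 60.7% of the beta chain level in control and 73.6%, 74.1% and 68.4% in LPS libraries, with no overlap. Lamb3 was at most 3.62 CPM and not called. For the 3 beta chains edgeR called 0, with 1 lower at an unadjusted p under 0.05, and DESeq2 called 1 lower, against 6.71% and 11% of all genes called lower by these tools. With 3 genes such counts say nothing beyond these shares.

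Lamc1, the gamma chain of most laminins, was at 498, 555 and 501 CPM in control and 556, 563 and 425 CPM in LPS libraries, with log2 fold change -0.01 ± 0.13 SE (adjusted p = 0.969). LPS replicate 3 was the lowest of the 6 libraries, and the groups overlapped.

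To compare chains within a library, 11 ratios of levels per length are given as a description, with no test, since they were chosen with earlier results of these data known. All are between integrin partners but Lama4 to Lama2, which are both laminin alpha chains. The ratio of Itgal to its partner Itgb2 was 0.00323, 0.00351 and 0.0165 in control and 0.292, 0.348 and 0.401 in LPS libraries, while that of Itgax to Itgb2 was 0.0129, 0.0178 and 0.0282 in control and 0.0042, 0.00239 and 0.00419 in LPS libraries. Itgam to Itgb2 overlapped between groups. Itgal and Itgax, which share Itgb2, differed in direction within the same libraries. Over their shared partner Itgb1, Itga5 was at 0.125, 0.125 and 0.184 in control and 0.253, 0.276 and 0.404 in LPS libraries, and Itga7 at 0.0175, 0.0163 and 0.0171 and 0.03, 0.0305 and 0.0279.

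Itga8 to Itgb1 was 0.0286, 0.028 and 0.0152 in control and 0.00929, 0.00605 and 0.00625 in LPS libraries, and Itga11 to Itgb1 was 0.0391, 0.0378 and 0.0404 and 0.0199, 0.0203 and 0.0278. Lama4 to Lama2 went from 1.28, 1.01 and 1.98 in control to 10.0, 9.23 and 7.4 in LPS libraries. The remaining ratios were 0.00226, 0.00228 and 0.00284 in control and 0.00753, 0.00655 and 0.00551 in LPS for Itga2 to Itgb1, 0.0231, 0.0281 and 0.0737 and 0.0128, 0.0124 and 0.0225 for Itga6 to Itgb1, and 0.0218, 0.0179 and 0.0185 and 0.0467, 0.0432 and 0.0227 for Itgb8 to Itgav.

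Replicate 3 stood apart from its companions across all tested genes. Deviations from the group means correlated at 0.613 between control 3 and LPS 3, and negatively between number 3 and the other numbers. Of the 32 tested subunits, 11 were higher in replicate 3 than in replicates 1 and 2 in both groups, and 14 were lower. The matching shares over all genes were not counted, so these counts are not read as a trait of the subunits. With both libraries numbered 3 left out, a choice made after seeing the data, 10 subunits were called higher, against 22.6% of all genes, and 9 lower, against 20.4% of all genes. Under this choice Itgb8 had log2 fold change 2.01 (adjusted p = 6.14e-05) and Itgav 0.84 (adjusted p = 7.22e-05), and the 8 subunits called with all libraries kept their sign and were called.

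**Figure D5:**
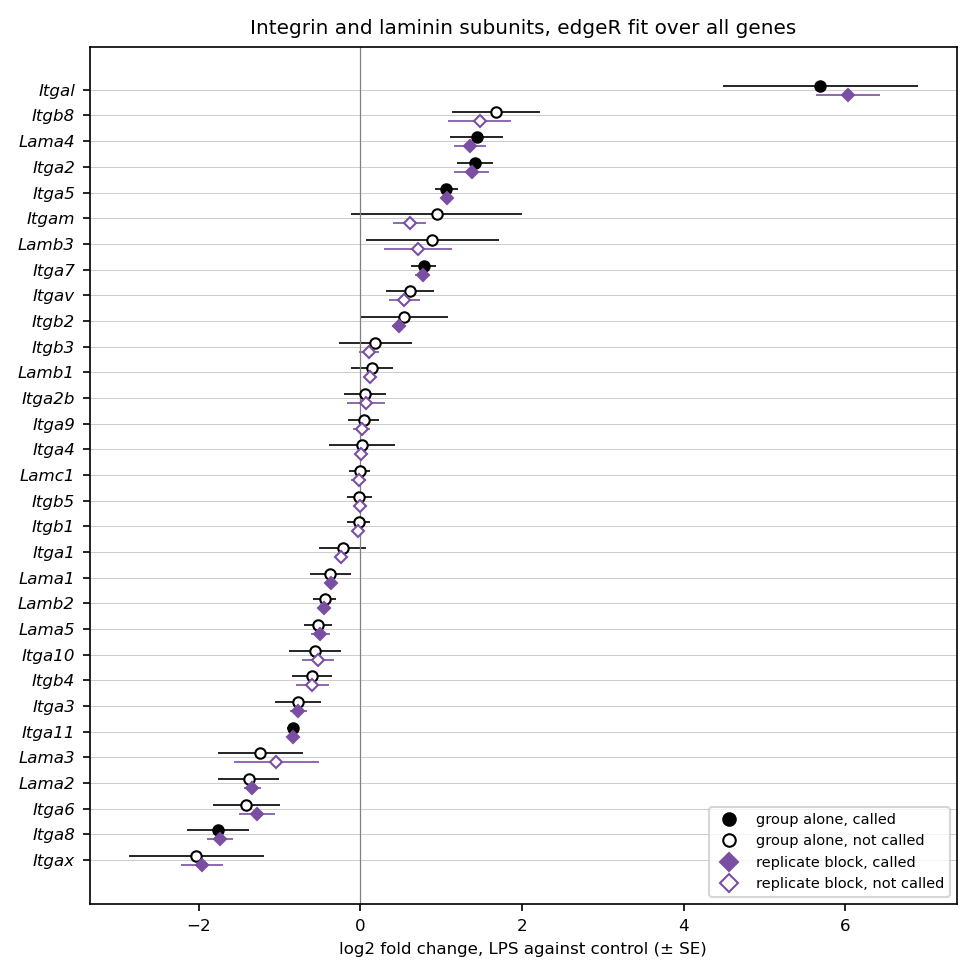
Log2 fold change (LPS against control) with its SE for 31 of the 32 tested subunits, from the edgeR fit with group alone (black circles) and with the replicate number as a block (purple diamonds). Filled symbols are called at an adjusted p under 0.05. Filled diamonds number 15, and filled circles 7.

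The genes around the receptors were described from 4 lists that were chosen with earlier results of these data known. Over the 71 tested genes of these lists, 4 were called higher and 8 lower, against 9.09% and 6.71% of all tested genes, the background also for the counts of each list below. Of 23 tested adhesome linkers and kinases, 3 fell, with a list median log2 fold change of -0.03 against -0.02 over all genes. They were Vcl, vinculin, at 523, 529.5 and 367 CPM in control and 285, 275 and 233 CPM in LPS libraries, Tln2, a talin, at 43.1, 44 and 41.9 and 23.1, 23.3 and 26.5 CPM, and Tns1, a tensin, at 334, 365 and 310.4 and 192, 170.3 and 189 CPM. Their log2 fold changes were -0.84 ± 0.17, -0.82 ± 0.09 and -0.87 ± 0.10 (SE), with adjusted p of 0.0278, 0.00396 and 0.0044. These are also abundant in smooth muscle, whose markers were lower in the same libraries, and the part of those cells was not tested.

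Among 15 basement membrane partners and other laminin receptors, 1 rose and 2 fell, with a list median of -0.29. Agrn, agrin, a heparan sulphate proteoglycan that links laminin to dystroglycan, was at 208, 221 and 194 CPM in control and 822, 833 and 463 CPM in LPS libraries (log2 fold change 1.77 ± 0.24 SE, adjusted p = 0.00919). As for Lama4, LPS replicate 3 held the lowest LPS level. Nid2, a nidogen that ties laminin to collagen, was at 49.8, 55.5 and 41.8 CPM in control and 27.9, 31.4 and 25.5 CPM in LPS libraries (log2 fold change -0.79 ± 0.14 SE, adjusted p = 0.0178). Ntn4, a netrin that binds laminin gamma chains, was at 30.3, 32.4 and 23 CPM and 7.61, 8.47 and 17 CPM (log2 fold change -1.37 ± 0.34 SE, adjusted p = 0.0468).

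Among 21 tested integrin ligands other than laminins, 2 rose and 3 fell, with a list median of -0.19. Icam1, the ligand of LFA-1 and Mac-1, was at 84.5, 69.1 and 68.4 CPM in control and 442, 451 and 310.5 CPM in LPS libraries (log2 fold change 2.44 ± 0.18 SE, adjusted p = 0.00135). Madcam1, an endothelial ligand of integrins with Itga4 and Itgb7, had 0, 1 and 1 counts in control and was at 21.3, 19.1 and 8.06 CPM in LPS libraries (adjusted p = 0.00169). Its control counts are at the detection floor, so no fold is given, and it entered the test through its LPS counts, so its call is no support. With at least 10 counts required in every library it was not tested, and 1 of 20 ligands was called higher. The 3 that fell were Fbln5, fibulin-5 of elastic fibres, at 313, 299 and 164 CPM in control and 118, 112 and 87.8 CPM in LPS, Fbn1, fibrillin, at 1015, 1237 and 972 and 707, 801 and 642 CPM, and Tgfb2 at 24.6, 27.7 and 22.1 and 17.5, 15.9 and 18 CPM. Their adjusted p were 0.0304, 0.0414 and 0.0341.

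Of 12 tested membrane partners, 1 rose, with a list median of -0.15. Cd47, which binds Itgb3 integrins and thrombospondin in the membrane, was at 74.5, 73.1 and 76.4 CPM in control and 199, 214 and 202 CPM in LPS libraries (log2 fold change 1.46 ± 0.07 SE, adjusted p = 0.00026), with tight replicates and no overlap. With the replicate block the 4 lists gave 11 higher and 29 lower calls of 71, against 15.4% and 14.9% of all tested genes. Of the 12 calls without the block, those of Tln2, Tns1, Icam1 and Cd47 held with each library left out in turn, as did that of Madcam1, which is subject to the limit just given. The other 7 were lost without 1 or more libraries, so that the lower calls numbered 2 without replicate 1 or replicate 2 of either group, where 0.72% to 1.44% of all genes were called lower. The higher calls numbered 7 without LPS replicate 3, against 12.6% of all genes. With library size alone as scaling there were 4 higher and 16 lower calls, against 6.48% and 13.5% of all genes.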

How the data were processed

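The authors deposited whole-number counts of reads per gene, raw and not normalised, for 3 control and 3 LPS libraries. Per the labels and the series text, reads were trimmed (cutadapt 1.15), quality filtered, cleared of contaminants, aligned to mouse GRCm38 (STAR 2.5.2b) and processed with SAMtools 1.5. featureCounts 1.5.3 is also listed. The annotation release, strand setting and treatment of reads with several positions are not given in the sources used here, although the library kit is stranded. A table of all samples was not used. Coordinates and exon lengths came from GENCODE M21.

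Genes were filtered with filterByExpr (minimum count 10, minimum total 15), which left 15226, and scaled with TMM. CPM are counts scaled to these library sizes. LPS was compared with control by the edgeR 4.0.16 quasi-likelihood F-test (R 4.3.3), two-sided, with Benjamini-Hochberg adjustment over all 15226 genes. The SE was taken as |log2 fold change|/√F. The test was checked on simulated counts. Libraries held between 20297 and 20792 genes with a count, and 3 counts, taken as the floor, equal 0.124 to 0.167 CPM (counting error only).

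Same-numbered control and LPS libraries deviated together from their group means across genes (r = 0.513, 0.334 and 0.613 for numbers 1, 2 and 3), so the numbers were taken to pair the libraries, from the data and not from the labels. Across numbers 1 and 2 the correlations were similar (0.419 for control 1 with LPS 2, and 0.323 for control 2 with LPS 1), and those of number 3 with the others were negative, so the pairing sets number 3 apart from 1 and 2 more than 1 from 2. A subunit that entered the tests and counts is not reported here by itself. The members and lists were chosen with earlier results of these data known. Full values are given for members called with or without the block and for those most abundant per length, and called genes of the context lists are named where they reach 5 CPM. Alternatives were other scalings and filters, DESeq2 1.42.0, the edgeR exact test, limma-voom (limma 3.58.1), the replicate block, and each library left out.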

Additional observations from a re-analysis of the deposited data

How the results depend on the processing

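All 8 called subunits kept their sign in each of the 16 alternatives, and Itga11 was the 1 called in every one. Over the alternatives of all tested subunits, 449 values stayed on the same side of the threshold, 29 calls were lost, 33 were gained and 0 called values changed sign. Leaving out 1 library in turn gave 0 to 8 higher calls (main 6) and 1 to 3 lower calls (main 2), with fewer samples in each fit. For the 71 context genes it gave 3 to 7 higher (main 4) and 2 to 9 lower (main 8), while over all genes 2.44% to 12.6% were called higher and 0.72% to 9.13% lower in these fits. Lower calls among the subunits rose to 5 with library size alone, 5 with DESeq2, 4 with the edgeR exact test and 9 with the replicate block, where 13.5%, 11%, 7.97% and 14.9% of all genes were called lower. Context genes called lower numbered 13 with upper-quartile factors, 16 with library size alone, 17 with DESeq2, 14 with the exact test and 29 with the block, which called 11 higher, beside 10.4% of all genes lower with upper-quartile factors and the shares just given. Over all genes the median log2 change lay at -0.02 under TMM, -0.12 under upper-quartile scaling and -0.18 when library size was used by itself. Without replicate 3 of both groups, chosen after seeing the data, 10 subunits were called higher and 9 lower, and 17 context genes higher and 36 lower, against 22.6% and 20.4% of all genes. The replicate block added the 8 calls named in the report and lost or turned none of the other subunit calls. The share of Itgb1 among beta subunits was 3.0 points lower in LPS and, leaving out 1 library in turn, ranged from -6.89 points without control replicate 3 to 2.34 points without LPS replicate 3, where its sign turned. The cause of these shifts was not tested. Levels near 3 counts per library, as for Itgad, Itgae and Itgb6, could not be compared at this depth.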
